A study of Mus musculus with 17 samples.

Results

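The replication-dependent histone genes were followed in mouse plasma cell-free RNA (cfRNA). These genes encode the linker histone H1 and the core histones H2A, H2B, H3 and H4, and were taken as every gene whose symbol begins with Hist1h, Hist2h, Hist3h or Hist4h, without the rows marked as pseudogenes by -ps in the name. The rule gave 69 of the 49585 genes in the tables, of which 6 are named as H1, 20 as H2A, 18 as H2B, 12 as H3 and 13 as H4. Of the H2A genes, Hist1h2aj and Hist1h2al are typed as pseudogenes in GENCODE M21 and had 0 reads. The libraries came from wild-type C57BL/6J mice of the MHU-1 space mission, all aged 13 weeks. Aboard the International Space Station 6 mice lived in microgravity (MG) and 6 in a centrifuge that gave artificial 1-G gravity (AG), and 5 of the mice kept on the ground as controls (GC) were sampled. Each library was made from the plasma of 1 mouse with a kit for small RNA, because the RNA was degraded, so short fragments of longer RNAs were counted. AG against GC compared flight at 1-G with the ground, MG against GC compared microgravity in flight with the ground, and MG against AG compared microgravity with 1-G within the same flight.

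Histone genes of this kind are transcribed mainly while a cell copies its DNA, so that new chromatin can be packed as it is made. Their mRNAs are exceptional in ending not in a poly(A) tail but in a conserved stem-loop, which the stem-loop binding protein (Slbp) holds during processing, export, translation and decay. They lie in clusters of many near-identical copies, unlike the replication-independent (replacement) histone genes such as H3f3a, which are spliced, polyadenylated and used throughout the cell cycle. Blood plasma carries cfRNA from blood cells, platelets and solid tissues.

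The stem-loop was searched for as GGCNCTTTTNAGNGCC on the sense strand of the GENCODE M21 transcripts (GRCm38, the assembly called mm10). It was present in 42 of the 69 members (60.9%), against 47 of 55341 genes in all (0.0849%). The genes outside the rule that held it were H2afx, H2bfm, Trim17, Gm20634 and Gm44648. Examples from 11 genes of the 5 classes are printed 5′ to 3′ as DNA letters, with the stem-loop in capitals and the flanking bases in lower case, to show how alike the mRNA ends of the family are and where the H4 genes depart from the others.

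Hist1h1c: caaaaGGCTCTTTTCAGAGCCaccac
Hist2h2aa1: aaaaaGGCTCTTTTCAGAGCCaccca
Hist2h2aa2: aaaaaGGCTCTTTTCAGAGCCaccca
Hist3h2a: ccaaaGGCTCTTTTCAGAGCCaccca
Hist1h2bg: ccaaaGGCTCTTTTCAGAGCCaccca
Hist1h3b: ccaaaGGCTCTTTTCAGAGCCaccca
Hist2h3c2: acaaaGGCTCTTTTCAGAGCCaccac
Hist1h4c: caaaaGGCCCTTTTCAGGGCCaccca
Hist1h4h: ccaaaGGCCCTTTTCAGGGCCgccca
Hist1h4i: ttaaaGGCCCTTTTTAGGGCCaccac
Hist1h4m: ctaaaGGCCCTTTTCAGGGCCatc

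The form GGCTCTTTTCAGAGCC was the usual one and occurred in 26 members of the H1, H2A, H2B and H3 classes. The 9 H4 genes with a match held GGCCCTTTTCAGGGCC (7 genes) or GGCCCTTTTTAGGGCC (2 genes), a stem with 1 base pair changed, and no other class held either. Printed elements of different classes could be identical over all the bases shown, as in Hist3h2a, Hist1h2bg and Hist1h3b, so a fragment from this end does not name its gene. Members with a match held 96.8% of the H1 reads, 99.3% of the H2A reads, 97.4% of the H3 reads and 92.9% of the H4 reads, but 6.85% of the H2B reads. The difference came from Hist1h2bc, the H2B gene with the most reads, whose annotated transcript splices from just after its stop codon to a distant exon and holds no match. A gene without a match may only have a transcript model that stops short of the element.

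The members held 2498 reads in all, between 49 and 234 per library, out of totals of 84657 to 277682 counts. Reads were found for 51 members, 28 had at least 5 reads over all libraries, 23 had 1 to 4 and 18 had none. Most of the reads came from few genes: Hist1h2bc, Hist1h3b, Hist1h1c, Hist2h2aa2, Hist1h4m and Hist2h2aa1 held 75.6%. The H2B class was the largest with 993 reads (39.8%), followed by H4 with 518 (20.7%), H2A with 420 (16.8%), H3 with 345 (13.8%) and H1 with 222 (8.89%). H2B, H3 and H1 were each dominated by a single gene, with Hist1h2bc at 90.0% of its class, Hist1h3b at 83.2% and Hist1h1c at 83.8%, whereas Hist1h4m held 33.4% of the H4 reads. The Hist1 cluster on chromosome 13 held 81.9% of the reads on 56 genes, and the Hist2 cluster on chromosome 3 held 400 of the 2498 on 10 genes. Per kilobase, by the RPKM of the authors, the median level over the 17 libraries was 14.8 for Hist1h2bc, 6.50 for Hist1h4m, 6.13 for Hist1h3b and 1.66 for Hist1h1c.

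Class composition differed from library to library. In GC the H2B genes held between 24.5% and 64.2% of the histone reads (median 55.9%), in MG between 33.1% and 44.9% (median 36.5%) and in AG between 4.65% and 42.0% (median 29.9%). The H3 genes went the other way, with 1.61% to 22.4% in GC (median 3.68%), 10.5% to 17.7% in MG (median 12.8%) and 13.3% to 33.7% in AG (median 20.3%). Apart from GC replicate 4, every GC library gave H3 a smaller share than every flight library did. GC replicate 4 had only 49 histone reads, 11 of them from H3 (22.4%, exact 95% interval 11.8% to 36.6%), and it also had the lowest H2B share of its group (24.5%). AG replicate 5 was the opposite extreme for H2B, with 4 of 86 reads (4.65%, exact 95% interval 1.28% to 11.5%). Intervals of this kind cover counting error only. As shares of all counts outside the 4 genes that dominated the libraries (Tmem38b, Polr2m, Lars2 and Rn18s-rs5), the members together held 0.423% to 0.883% in AG, 0.112% to 0.828% in MG and 0.149% to 0.611% in GC, so the groups overlapped in their total.

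**Figure D1:**
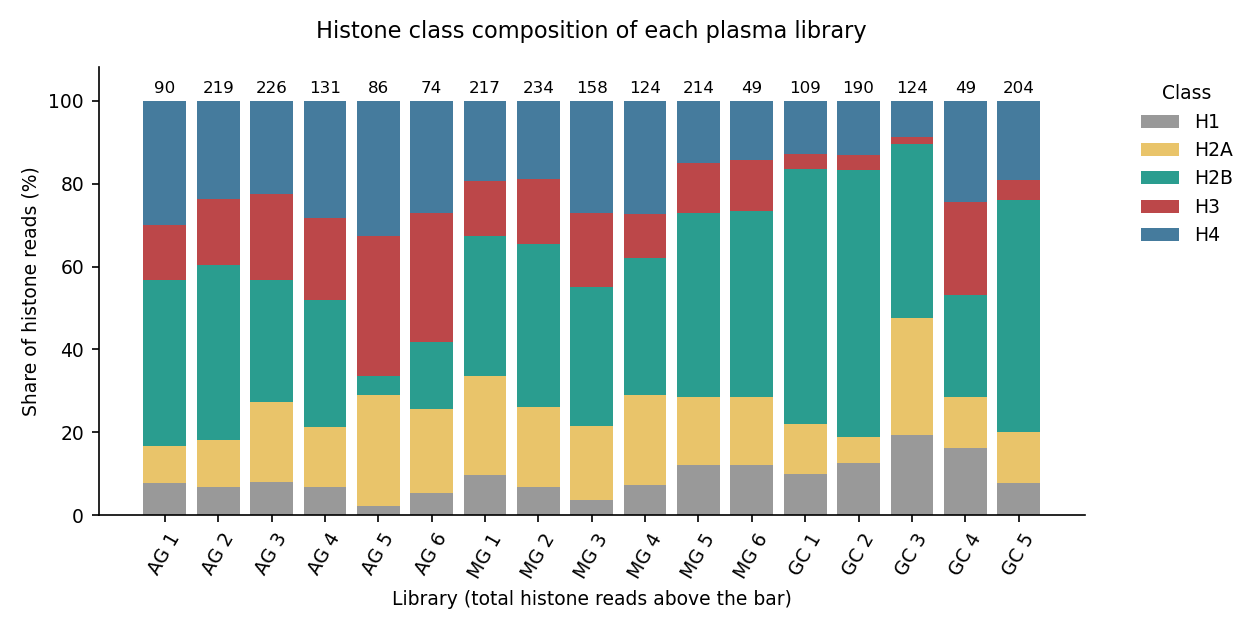
Share of each histone class (y axis, percent of the histone reads) in each of the 17 libraries (x axis), with the number of histone reads written above each bar. H3 (red) is 1.61% to 4.90% of the bar in 4 GC libraries, 22.4% in GC 4 and 10.5% or more in the AG and MG libraries.

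The near identity of the copies limits what a single gene's count can say. Over windows of 36 bases, the length of each sequenced read, the median member had 38.6% of its transcript unique among all annotated transcripts, with medians of 97.6% for H1, 21.1% for H2A, 45.8% for H2B, 37.3% for H3 and 55.2% for H4. Transcripts were matched on either strand, so an overlapping or antisense gene at the same place also made a window not unique. Hist3h2a shared 31.9% of its windows with the overlapping gene Trim17 and 2.79% with other members. Hist1h1c (89.5%) and Hist1h2bc (66.3%) were the easiest of the leading genes to tell apart. The value of Hist1h2bc is for the GENCODE transcript of 1156 bases. The counts and RPKM of the authors imply 736 bases for this gene, and the share for that length was not calculated. Hist1h3b had 38.6% and shared 50.3% of its windows with Hist1h3h, and Hist1h4m had 9.81% and shared 90.2% with Hist1h4n. Hist1h4n, Hist1h4m's near twin, was given 5 reads over all libraries against 173. How the counting placed reads with several matches is not given in the sources used here.

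Hist2h2aa1 and Hist2h2aa2, which encode the same H2A protein from neighbouring copies on chromosome 3 (96245497 to 96246082, plus strand, and 96239749 to 96240276, minus strand), showed what this does to single genes. The whole transcript of Hist2h2aa2, 528 bases, lies within that of Hist2h2aa1 from position 59 on. Neither has a window of 36 bases that is unique when transcripts of either strand are counted. Of the windows of Hist2h2aa1, 89.5% were shared with another member. All of them were shared with Gm20633, an antisense gene at the same place with 0 reads. Hist2h2aa1 had 4, 0, 18, 12, 0 and 0 reads in the AG libraries, 10, 24, 20, 7, 12 and 0 in MG and 11, 0, 28, 0 and 24 in GC. Hist2h2aa2 had 0, 22, 19, 0, 20 and 13 reads in AG, 25, 19, 3, 16, 17 and 7 in MG and 0, 6, 5, 6 and 0 in GC. In 10 of the 17 libraries 1 copy was at 0 while the other had reads, and in 6 of these the other had at least 10. The pair held 348 reads, 82.9% of the H2A reads. Its sum had log2 fold changes of 0.71 in AG against GC (SE 0.53, adjusted p = 0.598, edgeR), 0.72 in MG against GC (SE 0.53, adjusted p = 0.991) and 0.011 in MG against AG (SE 0.49, adjusted p = 0.994), and the values of each copy alone are uncertain. The sum was tried after the values had been seen.

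**Figure D2:**
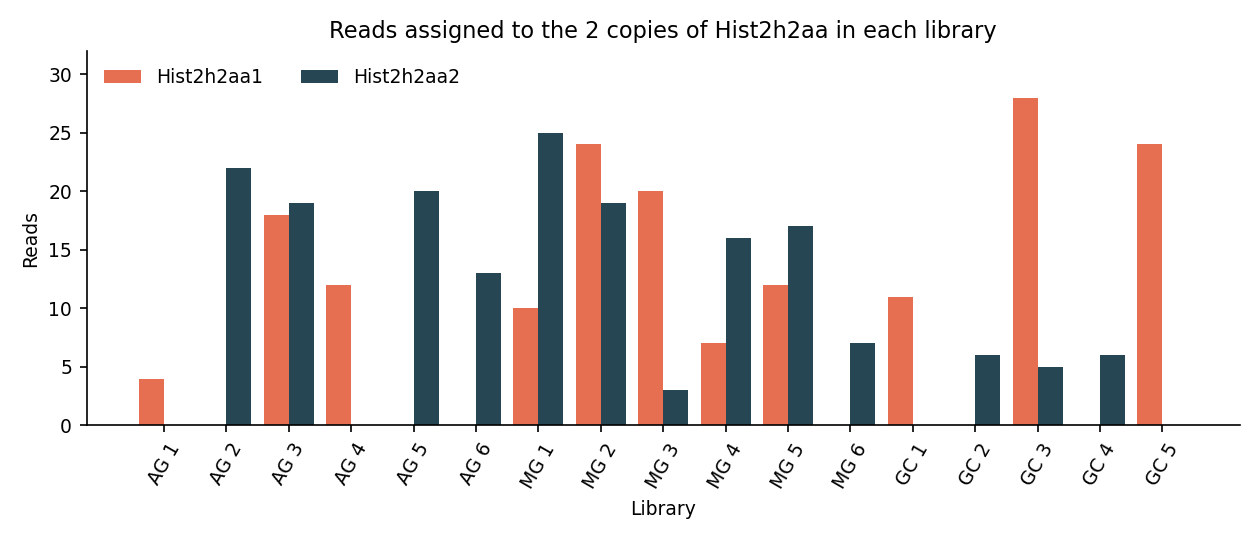
Reads (y axis) assigned to Hist2h2aa1 (orange) and Hist2h2aa2 (dark) in each library (x axis). In 10 of 17 libraries one bar is at 0 and the other is not, and which copy is empty changes among the AG and among the GC libraries, while in MG only MG 6 has an empty copy.

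Between AG and GC the H3 sum differed most of the 5 class sums, and most of its reads were assigned to 1 gene, Hist1h3b. The H3 sum had 12, 35, 47, 26, 29 and 23 reads in the AG libraries and 4, 7, 2, 11 and 10 in the GC libraries. On the CPM scale after TMM scaling (TMM-normalized CPM), which corrects for the few genes that fill most of each library, the mean of the 6 AG libraries was 254 ± 120.1 (SD) and that of the 5 GC libraries 43.8 ± 38.5 (SD). All AG libraries but replicate 1 lay above every GC library, and every GC library but replicate 4 lay below every AG library. Summed to 1 row per class within the whole table, H3 was higher in AG by a log2 fold change of 2.58 (SE 0.54, adjusted p = 0.00972, edgeR's quasi-likelihood test with Benjamini-Hochberg adjustment over 271 rows). It was the only one of the 5 class sums called in this comparison, in which 1.48% of all rows were called. The call was lost without GC replicate 2 (adjusted p = 0.0569) or GC replicate 3 (0.0574), with no scaling factor (log2 fold change 1.76, adjusted p = 0.0574), and where genes of fewer reads were tested too (2.31, adjusted p = 0.208, over all rows with at least 5 reads). In plasma, fewer cells releasing an RNA and less RNA per cell cannot be told apart.

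Most of this sum was assigned to Hist1h3b (chromosome 13, 23752267 to 23752886, plus strand). Which H3 copy carried the difference is uncertain, because 61.4% of the 36-base windows of Hist1h3b were shared with other members. Hist1h3b had 11, 28, 39, 24, 27 and 17 reads in the AG libraries, 22, 34, 27, 9, 24 and 4 in MG and 3, 2, 1, 10 and 5 in GC. The lowest AG library, with 11 reads, was just above the highest GC library, with 10, but after scaling GC replicate 4 (100.3 CPM) lay above AG replicate 1 (96.2). Hist1h3b was higher in AG than in GC by a log2 fold change of 2.94 (SE 0.64, adjusted p = 0.0169, edgeR, over 272 genes), and it was the only member of the 6 tested that was called, against 1.47% of all genes. Leaving out GC replicate 1, 2, 3 or 5 ended the call, with adjusted p between 0.0558 and 0.102. So did testing all genes with at least 5 reads (adjusted p = 0.0998), no filter (0.425), edgeR's exact test together with the filter of at least 5 reads (0.246), limma on RPKM (0.146) and a fit of only AG and GC (0.0543), while without GC replicate 4 the log2 fold change was 3.87 (adjusted p = 0.000704). With each library left out the log2 fold change of Hist1h3b ran from 2.65 to 3.87, and with no scaling factor it was 2.22 (edgeR). The other H3 genes together had 1, 7, 8, 2, 2 and 6 reads in AG, 7, 3, 1, 4, 2 and 2 in MG and 1, 5, 1, 1 and 5 in GC, so these groups overlapped. In TMM-normalized CPM their mean ± SD was 35.7 ± 24.5 for AG, 19.2 ± 12.3 for MG and 12.6 ± 6.69 for GC, with 8.74 to 78.3 in AG and 6.21 to 20.9 in GC, so they overlapped after scaling too. Among them Hist2h3c2 had 30 reads (log2 fold change 1.92 between AG and GC, SE 1.02, adjusted p = 0.425, edgeR, over genes with at least 5 reads) and Hist1h3a 14 over all libraries, and the sum without Hist1h3b was too low for the expression filter.

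The H4 genes came next in size, without passing the test. Their sum had 27, 52, 51, 37, 28 and 20 reads in AG, 42, 44, 43, 34, 32 and 7 in MG and 14, 25, 11, 12 and 39 in GC. In TMM-normalized CPM it lay between 236 and 435 in AG and between 68.2 and 162 in GC, so that every AG library was above every GC library. This held for 2.21% of all rows in either direction and for 1.48% with AG the higher, and not for the reads before scaling, which overlapped. The log2 fold change was 1.44 (SE 0.43, adjusted p = 0.0880, edgeR). With no scaling factor it was 0.45 (SE 0.54, adjusted p = 0.507), and in limma on RPKM 0.67 (adjusted p = 0.372). DESeq2 called it on the same rows (1.42, adjusted p = 0.0257). So did edgeR without AG replicate 6 alone (1.55, adjusted p = 0.0496) and without AG replicate 6 and MG replicate 6 (1.54, adjusted p = 0.0331). These libraries had the most reads of 10 liver genes (242 and 477, against 10 to 29 in GC), and leaving out both was tried after the values had been seen.

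Within the H4 class the 3 genes with the most reads were Hist1h4m, Hist1h4c and Hist1h4h. Hist1h4m (chromosome 13, 21811746 to 21812147, plus strand) had 12, 21, 9, 11, 6 and 8 reads in AG, 21, 11, 15, 13, 3 and 2 in MG and 8, 9, 4, 4 and 16 in GC, and its log2 fold change between AG and GC was 1.01 (SE 0.53, adjusted p = 0.422, edgeR). Hist1h4c had 5, 8, 17, 6, 14 and 10 reads in AG and 1, 1, 5, 0 and 4 in GC, with 7, 13, 9, 6, 6 and 1 in MG. Hist1h4h had 3, 3, 16, 8, 6 and 1 reads in AG, 7, 9, 7, 3, 4 and 1 in MG and 0, 1, 0, 1 and 3 in GC. For both genes the AG libraries were mostly the higher ones, with some overlap. They fell under the expression filter, and in a fit of all 6270 genes with at least 5 reads their log2 fold changes were 2.44 (SE 0.78) and 2.83 (SE 0.88), with adjusted p of 0.402 and 0.397 (edgeR). With the 4 dominant genes left out of the table Hist1h4c passed the filter and was called beside Hist1h3b (2.88, adjusted p = 0.0221, edgeR). Hist1h4i, named after its values had been seen, went unlike these, with 6, 7, 3, 1, 0 and 0 reads in AG and 3, 6, 0, 5 and 8 in GC.

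H2A, H2B and H1 were not called between AG and GC. The H2A sum ranged from 8 to 44 reads in AG (median 21) and from 6 to 35 in GC (median 13), with 8 to 52 in MG (median 31.5). Its log2 fold change was 0.87 (SE 0.49, adjusted p = 0.437, edgeR). The copies Hist2h2aa2 (2.37, SE 0.92) and Hist2h2aa1 (-0.70, SE 0.97) had log2 fold changes of opposite sign, and their sum was not called. The study called a gene at a p under 0.05 without adjustment and a fold change over 1.5. By that criterion Hist2h2aa2 would count as higher in AG beside Hist1h3b, against 6.25% of all genes higher and 11.8% in either direction. With the copies summed only Hist1h3b was left, and with only the AG and GC libraries in the fit Hist2h2aa2 did not pass the expression filter, while Hist1h3b and Hist1h4m (1.01, unadjusted p = 0.0438, edgeR) met the criterion. The H2B sum (-0.38, SE 0.45) and the H1 sum (-0.43, SE 0.40) had negative log2 fold changes of about the size of their errors, with adjusted p of 0.739 and 0.690 (edgeR). The H2B genes other than Hist1h2bc had 8, 4, 9, 7, 4 and 4 reads in AG, 7, 3, 10, 7, 7 and 2 in MG and 7, 3, 9, 1 and 7 in GC. In TMM-normalized CPM these were 53.1 ± 18.5, 38.1 ± 24.2 and 31.5 ± 21.6 (SD), and the groups overlapped. Hist1h1c, a linker histone gene used in many tissues, had 5, 14, 14, 9, 0 and 4 reads in AG, 18, 15, 3, 6, 22 and 5 in MG and 8, 22, 24, 3 and 14 in GC. Its groups overlapped in every comparison, with log2 fold changes of -0.44 (AG against GC, SE 0.53), -0.28 (MG against GC, SE 0.51) and 0.15 (MG against AG, SE 0.51).

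**Figure D3:**
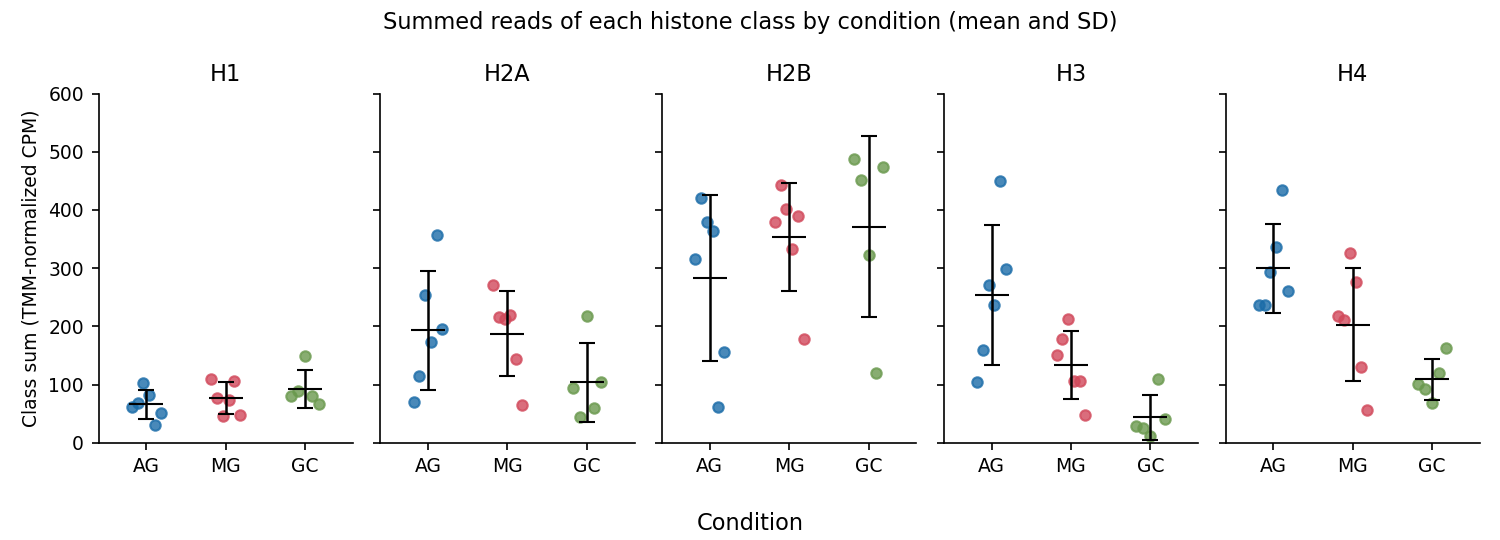
Summed level of each histone class in TMM-normalized CPM (y axis) by condition (x axis), with 1 point per library and bars for the mean and SD of 6 AG, 6 MG and 5 GC libraries. H4 in AG (236 to 435) lies wholly above GC (68.2 to 162), H3 does so apart from 1 library on each side, and the points of H1 and H2B overlap between all conditions.

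Between MG and GC no member and no class sum was called, and none of the 272 genes was (0%), by edgeR or by DESeq2. By the criterion of the study Hist1h3b and Hist2h2aa2 counted as higher in MG, against 3.68% of all genes higher and 4.41% in either direction (12 genes, all those with an unadjusted p under 0.05). With only the MG and GC libraries in the fit neither gene passed the expression filter, so nothing is read from this count. With the copies of the H2A pair summed it was 1. The H3 sum, with 29, 37, 28, 13, 26 and 6 reads in MG, was 134 ± 58.6 TMM-normalized CPM (SD, n = 6), and its log2 fold change against GC was 1.68 (SE 0.53, adjusted p = 0.576, edgeR). MG replicate 6 was the lowest of its group, and 3 MG libraries lay above every GC library. Hist1h3b had a log2 fold change of 2.04 (SE 0.63, adjusted p = 0.604, edgeR). Without GC replicate 4, which had the highest level of its group, it was 2.99 and was called (adjusted p = 0.0184, edgeR). So 1 GC library set the side of the threshold. As Hist1h3b did not pass the filter with only the MG and GC libraries, nothing is read from this call either. The H4 sum (0.89, SE 0.42) and the H2A sum (0.85, SE 0.48) had adjusted p of 0.986, as had the H2B sum (-0.073, SE 0.45) and the H1 sum (-0.25, SE 0.39, edgeR).

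Between MG and AG, the comparison of gravity within the flight, no member and no class sum was called either, and none of the 272 genes was (0%), while 36 genes had an unadjusted p under 0.05 and DESeq2 called 9. None of the 6 members tested passed the criterion of the study, against 13.2% of all genes. The H3 sum had a log2 fold change of -0.90 in MG against AG (SE 0.46, adjusted p = 0.383, edgeR), and the H4 sum one of -0.55 (SE 0.39, adjusted p = 0.587). Hist1h3b itself had -0.90 (SE 0.52, adjusted p = 0.478, edgeR). The H1, H2A and H2B sums were at 0.18 (SE 0.39), -0.021 (SE 0.45) and 0.30 (SE 0.43). With no scaling factor the median of all genes moved from 0.17 to 1.27 in this comparison, and the H3 and H4 sums turned to 0.35 and 0.60, below that median.

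**Figure D4:**
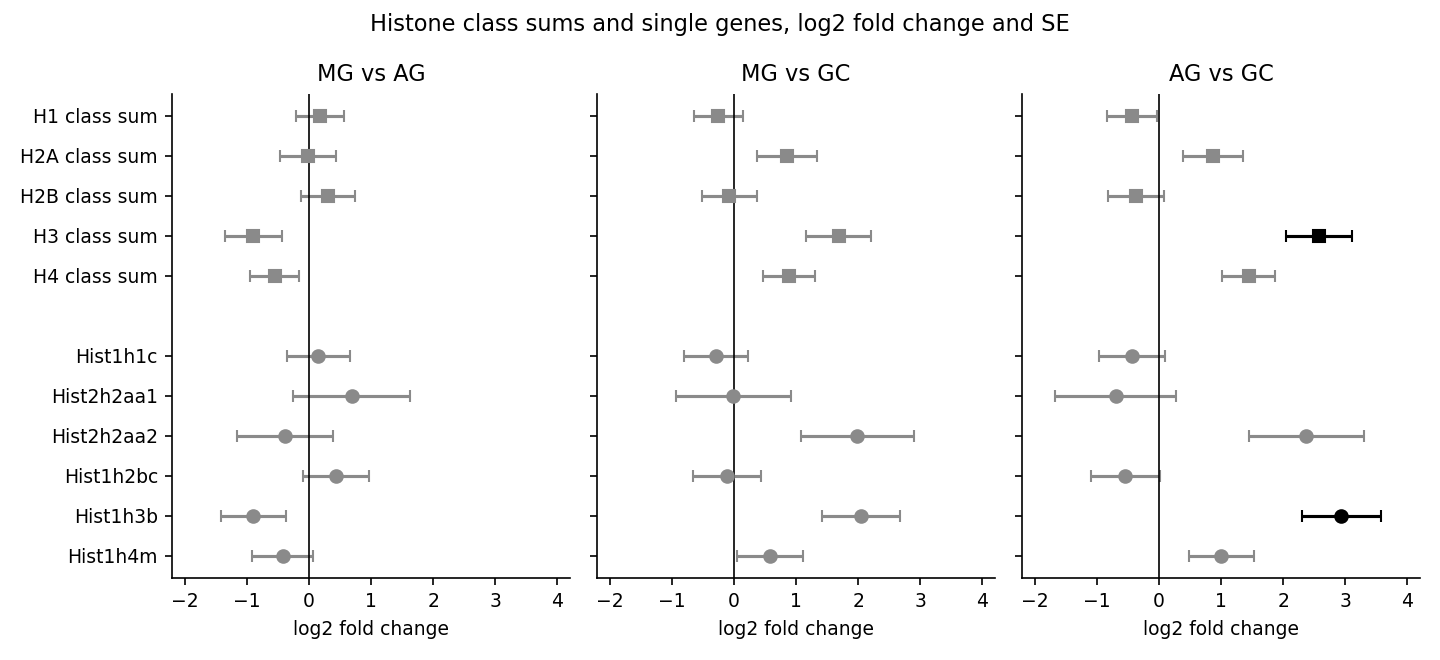
Log2 fold change (x axis) with its SE for the 5 class sums (squares) and the 6 members that passed the expression filter (circles) in the 3 comparisons, from edgeR's quasi-likelihood fit. Black marks an adjusted p under 0.05, which only the H3 sum (2.58) and Hist1h3b (2.94) reached, both in AG against GC.

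The 3 comparisons share their libraries in pairs, so they are not independent of each other. In the fit of all genes with at least 5 reads, 28 members were tested. None was called by adjusted p in any comparison, against 0.0957% of all genes for MG against AG, 0.159% for MG against GC and 0% for AG against GC. By the criterion of the study 8 members counted between AG and GC, 7 of them higher in AG, against 12.2% of the 6270 genes in either direction and 5.82% higher. The 7 were Hist1h3b, Hist1h4h, Hist1h4c, Hist2h2aa2, Hist1h2bf, Hist1h2bg and Hist1h2ag, and the other was Hist1h2br. Of the H2A and H2B genes among them, named after their values had been seen, Hist1h2bf had 8 reads in AG, 6 in MG and 0 in GC, Hist1h2ag had 6, 1 and 0, and Hist1h2bg had 12, 8 and 1. Genes with so few reads can pass this filter through the group where they are high. The reads of Hist2h2aa2 cannot be told from those of its twin copy. Nothing is therefore read from the counts of members by this criterion. Between MG and GC 7 counted, 6 of them higher in MG, against 13.6% and 9.79%. These counts are from the quasi-likelihood test. With edgeR's exact test, the kind of test the study used, on the same genes and thresholds, 5 members counted between AG and GC (4 higher in AG, against 2.11% of all genes in either direction and 0.75% higher), 4 between MG and GC (4 higher in MG, against 2.28% and 1.71%) and 0 between MG and AG (against 2.25%). The median log2 fold change over the 28 members was 0.81 between AG and GC and 0.79 between MG and GC, with -0.053 and 0.22 over all genes. These medians depended on the filter. With no filter they were 0.28 and 0 over 51 members, with 0 and 0.070 over all genes. Over the 6 members of the main fit they were 0.29 and 0.28. By the quasi-likelihood test 1 member counted between MG and AG, as higher in MG, against 13.1% and 9.87%, and the median over the 28 members was -0.21 with 0.34 over all genes. That member was Hist1h2br, an H2B gene with 24 reads that had 1 read in the AG libraries together. Among the other members named by their read counts, Hist1h2bg had 21 reads, Hist3h2a 32, Hist1h1d 15 and Hist1h1e 14 over the 17 libraries, 0 to 9 in any of them.

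Hist1h2bc (chromosome 13, 23684199 to 23692908, plus strand) was the H2B gene with the most reads. It had 28, 88, 57, 33, 0 and 8 reads in the AG libraries, 66, 89, 43, 34, 88 and 20 in MG and 60, 119, 43, 11 and 107 in GC. AG replicate 5 had none among 86 histone reads, which allows a share of up to 3.49%, and AG replicate 6 and GC replicate 4 were the next lowest. No comparison called it, with log2 fold changes of -0.54 (AG against GC, SE 0.56), -0.11 (MG against GC, SE 0.55) and 0.43 (MG against AG, SE 0.53). Its level followed that of 10 platelet marker genes (Ppbp, Pf4, Itga2b, Itgb3, Gp1ba, Gp9, Tubb1, Treml1, F13a1 and Gp6). In TMM-normalized CPM over the 17 libraries Pearson's r was 0.940 (permutation p = 1e-05, which is as small as 100000 permutations allow, and 0.00024 after adjustment over 24 relations), and Spearman's rho was 0.895 (permutation p = 2e-05, adjusted 0.00048). Without the 2 libraries farthest from the median of the platelet list r was 0.889, and within groups it was 0.981 in AG and 0.954 in MG, over 6 libraries each. No value was calculated within the 5 GC libraries. The relation was looked for after the values had been seen.

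The ratio of these reads needs no scaling. Per 100 reads of the platelet list, Hist1h2bc had 8.46 to 13.2 reads in GC (median 11.9), 12.1 to 15.5 in MG (median 14.3) and 0 to 15.9 in AG (median 14.1). Apart from AG replicate 5, where the platelet list had 20 reads in all, the ratio in 16 libraries therefore kept between 8.46 and 15.9, while the platelet reads themselves ran from 51 to 906. Hist1h3b had 0.211 to 7.69 reads per 100 platelet reads in GC, 2.88 to 7.63 in MG and, without AG replicate 5 (135), 4.61 to 33.3 in AG. Over the same 16 libraries it thus ran from 0.211 to 33.3. Its r with the platelet list was -0.609 (permutation p = 0.00841, adjusted 0.0586), it fell to -0.253 without the 2 farthest libraries, and it was -0.766 within AG and 0.878 within MG. Of the other relations, Hist2h2aa2 with platelets had r = -0.681 (adjusted permutation p = 0.0248), with an adjusted p of 0.163 by rank and r = -0.327 without the 2 farthest libraries. Its twin copy Hist2h2aa1 had r = 0.529 (adjusted permutation p = 0.110), of the opposite sign, so nothing is read from either copy. That of Hist1h4m with red cells (r = 0.613) had an adjusted permutation p of 0.0586.

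**Figure D5:**
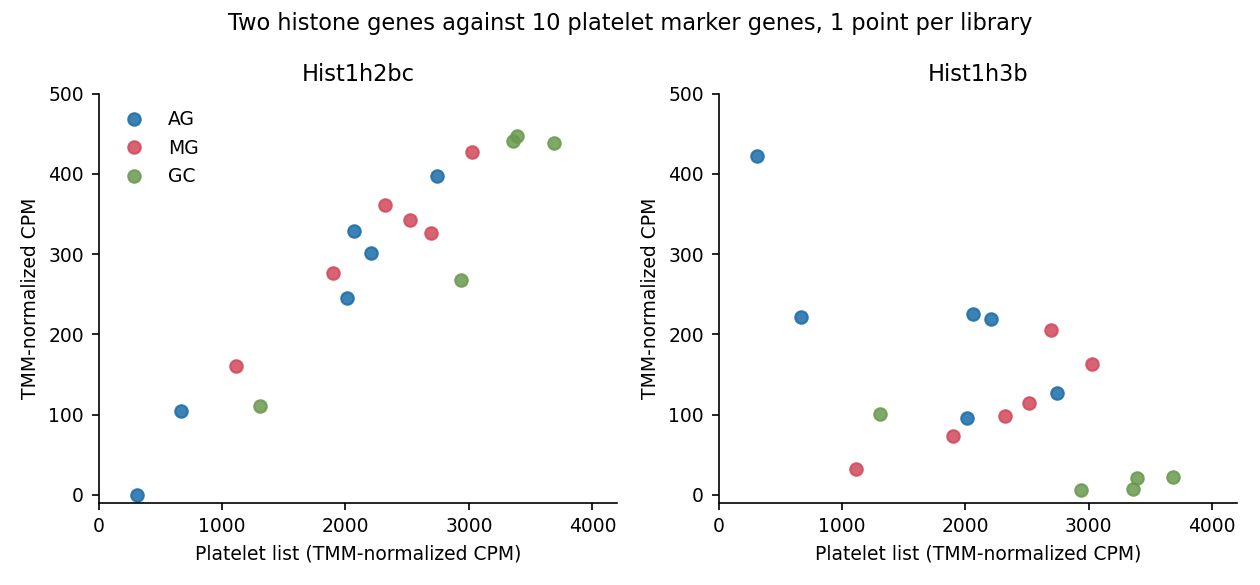
Level of Hist1h2bc (left) and Hist1h3b (right) against the summed level of 10 platelet marker genes, all in TMM-normalized CPM, with 1 point per library in the colour of its condition. The Hist1h2bc points lie along a line (r = 0.940), while those of Hist1h3b do not, with 4 GC libraries at the bottom right.

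Of the 17 red cell genes listed, 14 were in the tables, Klf1 was at 0 in every library, and 9 could be tested. All 9 had higher values in AG than in GC (median log2 fold change 0.87), of which Bpgm, the enzyme that makes 2,3-bisphosphoglycerate in red cells, was called (1.85, adjusted p = 0.0335, edgeR). Between MG and AG the same 9 genes were all lower in value in MG (median -1.32), and none was called, with 6 at an unadjusted p under 0.05. The summed list was 10163 to 25517 TMM-normalized CPM in AG, 3001 to 19151 in MG and 6313 to 18887 in GC. Of the 8 platelet genes tested, 7 had lower values in AG than in GC (median -0.47) and none was called, with 0 at an unadjusted p under 0.05. Across the 17 libraries Hist1h3b and the red cell list had r = 0.329 (permutation p = 0.197, adjusted 0.429) and rho = 0.306 (permutation p = 0.230, adjusted 0.395), and r = 0.562 without the 2 farthest libraries. The part of either cell type in the H3 difference was not tested. The 4 dominant genes took 86.9% to 91.7% of the counts in AG against 76.9% to 83.1% in GC. The counts left for all other genes overlapped, with 10182 to 28846 in AG and 19483 to 40468 in GC.

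The replication-independent histone genes had 250 reads over 12 genes, of which 155 were from H3f3a, which encodes H3.3, and 40 from H3f3b. H3f3a had 8, 10, 7, 2, 1 and 1 reads in AG, 11, 13, 6, 11, 11 and 4 in MG and 15, 13, 18, 3 and 21 in GC. Its log2 fold change between AG and GC was -1.10 (SE 0.49, adjusted p = 0.395, edgeR), opposite in sign to that of Hist1h3b, and neither MG comparison was called (0.61 against AG and -0.49 against GC). H2afz, a variant H2A, had 33 reads. H2afy2, H1fx, H1foo and Cenpa had none.

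Factors that make or process histone mRNA were hardly seen. The 17 listed genes found in the tables held 70 reads, with 12 from Slbp and 12 from Srrt, and none passed the expression filter. Of 22 genes of S phase and proliferation only Mcm7, a subunit of the replicative helicase, could be tested. Mcm7 held 596 of the 718 reads of that list, with 65, 69, 132, 85, 15 and 10 in AG, 13, 7, 17, 48, 21 and 22 in MG and 23, 34, 4, 17 and 14 in GC. Its log2 fold change was 2.10 in AG against GC (SE 0.62, adjusted p = 0.102, edgeR), -1.68 in MG against AG (SE 0.57, adjusted p = 0.169) and 0.42 in MG against GC (SE 0.61, adjusted p = 0.994). Its introns hold microRNA genes, so in libraries made for small RNA its reads need not be mRNA. The next gene, Top2a, the topoisomerase of dividing cells, had 44 reads, with 0 to 2 in AG, 1 to 5 in MG and 0 to 10 in GC libraries.

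The promoters of the members shared elements that differed by class. For 61 of the 69 members RefSeq promoters were available on GRCm38.p6, and the 250 bases before each start were searched on both strands. The CCAAT box (CCAAT) was found in 50 of 61 (82.0%), against 34.5% of all 27025 promoters, and in all 6 H1, 17 H2A and 16 H2B promoters but in 8 of 10 of H3 and 3 of 12 of H4. The TATA box (TATAAA) was found in 29 (47.5%), against 13.0%. The octamer (ATTTGCAT), the site of Pou2f1, was found in 7 H2A and 6 H2B promoters (21.3% of members, against 1.61%) and in none of the other classes. Some H2A and H2B genes lie head to head with overlapping windows, such as Hist1h2aa and Hist1h2ba. There the same site, of the octamer or of the other elements, can count for both genes. A match of letters shows no binding.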

How the data were processed

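The authors mapped paired reads of 36 bases from each of 17 small-RNA libraries to mm10 with CLC Genomics Workbench and deposited, per gene and library, counts, RPKM and TPM. The deposited counts were used for every test, the RPKM of the authors for levels per length and for limma, and the deposited TPM values were not used. How reads with several matches and strand were handled is not given in the sources used here. The lengths implied by counts and RPKM equalled the GENCODE M21 transcript for 34 of the 51 members with reads, and Hist1h2bc had 736 bases against 1156. Totals of 84657 to 277682 counts, of which 4 genes took 70.6% to 91.7%, left 49 to 234 histone reads per library, and this depth limits all single genes.

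Counts were tested with edgeR 4.0.16 (R 4.3.3; quasi-likelihood, TMM factors, filterByExpr, all 17 libraries in 1 fit, Benjamini-Hochberg adjustment over all rows, called at adjusted p under 0.05). Class sums replaced their members as rows of the same table. Alternatives used DESeq2 1.42.0, limma 3.58.1 on log2(RPKM + 1), edgeR's exact test (run only where genes had 5 or more reads), other factors and filters, only the groups compared, a replicate block and each library left out. The script was tested on simulated data. Named genes were all members kept by the filter, the 3 of each class with the most reads and, of the other lists, those kept and the 2 with the most reads, while other names were chosen after their values were seen. Lists covered replacement histones, histone mRNA processing, S phase, red cells, platelets, leukocytes and liver. The members and lists were chosen with earlier results of these data known. Of 12 leukocyte genes only Lyz2 was tested, and it was not called (AG against GC 0.0061), as was 1 of 10 liver genes, not called (3.43). Permutation tests were two-sided and used scipy 1.17.1. Each library is said to be 1 mouse, so p-values measure the spread between these mice. No libraries were near duplicates of each other (lowest chi-square per degree of freedom 5.46).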

Additional observations from a re-analysis of the deposited data

Results flagged for a closer look

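Among 33 sets of 5 or 6 libraries (the 5 class sums and 6 tested members in each group), 3 held a library far from the rest of its group, where chance gives 1.65 (about 1 in 20). Hist1h3b in GC replicate 4 was at 100.3 TMM-normalized CPM (10 reads), against 6.21 to 20.9 as lowest and median of its group. The H1 sum in GC replicate 3 was at 149 TMM-normalized CPM (24 reads), with a group median of 80.1. Hist1h4m in AG replicate 3 was at 51.9 TMM-normalized CPM (9 reads), below the other AG libraries, which reached 105. GC replicate 4 also had the lowest scaling factor of its group (0.525, against 1.32 to 1.74).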

How the results depend on the processing

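All values are log2 fold changes from edgeR unless named otherwise. In AG against GC the H3 class sum (2.58) stayed positive under every alternative run, but its call was lost with no scaling factor (1.76), over rows with at least 5 reads (2.31, and 2.30 with the exact test, which was run only on those rows), with no filter (2.29) and in limma on RPKM (1.498). The H4 sum (1.44) was 0.45 with no scaling factor and became called in DESeq2 (1.42), without AG replicate 6 (1.55) and without the libraries richest in liver reads (1.54, chosen after seeing the data). Class sums called were therefore 0 with no scaling, with at least 5 reads, with no filter, in the exact test on rows with at least 5 reads and in limma, and 2 in DESeq2, without AG replicate 6 and without the liver-rich libraries. Member genes called (1) were 0 with at least 5 reads (also in the exact test run there), with no filter, in limma and with only the 2 groups in the fit, and 2 with the 4 dominant genes left out or by the criterion of the study, which also gave 2 in MG against GC. Leaving out each library gave 2.36 to 3.17 for H3, 1.32 to 1.65 for H4, and 0 to 2 class sums and 0 to 1 genes called. In MG against GC it gave 0 to 1 genes called.

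With no scaling factor the median of all genes was 1.27 in MG against AG and -1.14 in AG against GC, and signs turned for H2A (1.23), H3 (0.35), H4 (0.60), Hist2h2aa2 (0.83), Hist1h4m (0.66) and Hist1h3b (0.36) in MG against AG, for Hist2h2aa1 in MG against GC (0.10) and for H2A in AG against GC (-0.21). H2A in MG against AG (-0.021) also changed sign, to 0.18 with at least 5 reads (0.18 with the exact test on those rows), 0.21 with no filter, 0.39 in limma, 0.13 without the liver-rich libraries and -0.20 to 0.20 with each library left out. Hist2h2aa2 (-0.39) was 0.59 in limma and -0.67 to 0.16, and Hist1h1c -0.047 to 0.30, with each library left out. In MG against GC, H2B was 0.046, Hist2h2aa1 0.25 and Hist1h2bc 0.028 without the liver-rich libraries, Hist2h2aa1 was 0.029 in limma and 0.0030 with only the 2 groups, and Hist1h4m (0.58) was -0.095 in limma. With each library left out, H2B was -0.32 to 0.057, Hist2h2aa1 -0.35 to 0.60, Hist1h1c -0.45 to 0.090 and Hist1h2bc -0.33 to 0.019. The cause of these changes was not tested.

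Correlations of same-numbered libraries ran from -0.47 to 0.59. For replicate 1 they were 0.46 (MG and AG), 0.59 (MG and GC) and 0.48 (AG and GC). They were not set against those of differently numbered libraries, so whether replicate numbers pair the libraries was not tested. With the replicate block H3 in AG against GC was 2.68 and Hist1h3b 3.13, no call of a member or class sum changed, and H2A in MG against AG (0.041) and H2B (0.085), Hist2h2aa1 (0.64) and Hist1h2bc (0.060) in MG against GC changed sign. The depth, 49 to 234 histone reads per library, left 22 of the 28 members with at least 5 reads under the expression filter.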
